A study of Drosophila melanogaster with 4 samples.

Results

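The regions described here are 1035 sites of RPD3 enrichment along the left arm of chromosome 2 (2L) in Drosophila melanogaster heads. They were taken from the authors' combined list of enriched clusters, a cluster being a contiguous stretch that was enriched in the RPD3 immunoprecipitate over its input. A cluster of 2L was a member if its midpoint lay more than 1.5 Mb from the telomere end and more than 2 Mb from the centromere end of the arm and if it was narrower than 6000 bp. This leaves a stretch of 19.5 Mb, and all positions are 1-based on release 5 of the fly genome. The members are 1035 of the 7386 enriched clusters in the whole combined list, and of the 1265 on 2L. Position and width chose them, and their scores were not used.

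RPD3 is the fly counterpart of mammalian HDAC1. It removes acetyl groups from lysines of histone tails, which is generally linked to less accessible chromatin and lower transcription. It has no DNA-binding domain of its own and reaches chromatin as the catalytic subunit of corepressor complexes such as SIN3, NuRD and CoREST, and class I deacetylases are also found at promoters of active genes. In the fly head, a mixture of neurons, photoreceptors, glia, fat body and other cells, RPD3 has been studied in memory and lifespan.

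RPD3 was immunoprecipitated with antibody Q3451 from head nuclei of wild-type Oregon-R flies of the stage given as Mixed Adult. There were 2 ChIP samples and 2 inputs, all of the same strain, genotype and stage, and the labels tie 1 input to each ChIP sample. Flies came from population cages with overlapping generations, so each sample pools many animals and all cell types of the head, and the labels do not say whether the replicates were separate fly populations. The spread between them may therefore be technical. With 1 group of 2 ChIP samples and no values for the inputs alone, there were no groups of samples to compare, and no test was run. All values are descriptions, and correlations across windows or clusters carry no p because neighbouring regions and lists made from the same reads are not independent. Read depth per library is unknown. The lists hold no expression values, so the head origin could not be checked against marker genes. Genes are not named, because the gene table used here is of release 6.

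The members were short stretches of graded width and strength. Their widths ran from 1001 to 5989 bp with a median of 2391 bp, and the middle 50% lay between 1765 and 3342 bp. Of the 1035 members, 355 were under 2000 bp wide, 358 were from 2000 to under 3000 bp, 176 from 3000 to under 4000 bp, 91 from 4000 to under 5000 bp and 55 were 5000 bp or wider. Together they covered 2.72 Mb, or 13.9% of the stretch. The authors' score, taken here to be the log2 of ChIP signal relative to input, had a median of 0.52 and ran from 0.03 to 2.93, with 10% of members below 0.28 and 10% above 1.23. Scores rose with width, from a median of 0.33 in the narrowest of these width classes to 0.60, 0.87, 0.95 and 1.01 in the next ones. Spearman's rho of width and score was 0.743 over the 1035 members, and both values come from the same calls.

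The limit of 6000 bp set aside 82 wider clusters in the same stretch. These covered another 0.711 Mb, with medians of 7530 bp for width and 1.13 for score. The 5 members nearest the limit measured 5989, 5903, 5891, 5857 and 5845 bp, with scores of 0.44, 1.08, 1.01, 1.46 and 1.55. The 5 clusters just outside it measured 6067, 6071, 6075, 6089 and 6111 bp, with scores of 1.13, 0.81, 1.41, 0.96 and 1.21. No step in width separated the clusters on either side.

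In the replicates' own lists the same limits gave 782 clusters in replicate 1 and 868 in replicate 2. This is 40.1 and 44.5 clusters per Mb, or 42.3 ± 3.12 (SD, n = 2), against 53.0 per Mb in the combined list. The replicate clusters had median widths of 2373 and 2449 bp. The narrowest replicate cluster measured 1302 bp in replicate 1 and 1305 bp in replicate 2, while the combined list reached down to 1001 bp.

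Clusters were unevenly spread along the stretch, which was divided into 39 windows of 500 kb numbered from the telomere side. The last window also takes the remaining 11544 bp. A window held 10 to 43 members, with a median of 26. In replicate 1 it held 6 to 40 clusters with a median of 19, and in replicate 2 it held 8 to 38 with a median of 22. Over the 39 windows, rho of cluster density between the replicates was 0.787. Density was mildly alike in adjacent windows, with a rho of 0.36 over 38 neighbouring pairs for the members, 0.32 for replicate 1 and 0.36 for replicate 2.

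The densest window ran from 10000001 to 10500000 and held 43 members, with 40 clusters in replicate 1 and 38 in replicate 2. The next were 13000001 to 13500000, with 42 members and 29 and 35 replicate clusters, and 8000001 to 8500000, with 41 members and 34 and 33 replicate clusters. All 3 also held wide clusters that the members leave out, 7, 3 and 5 of them in that order. The densest window was 24.8% covered by members and 36.9% covered by clusters of any width. The 4 windows from 6500001 to 8500000 formed the longest run of windows with 35 or more members, at 37, 38, 37 and 41.

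The sparsest window, 14500001 to 15000000, held 10 members, with 6 clusters in replicate 1 and 8 in replicate 2, and 4.54% of it was covered. It was followed by 15500001 to 16000000, with 14 members and 11 and 10 replicate clusters, and 18000001 to 18500000, with 15 members and 11 and 13 replicate clusters. Each of these 3 windows held fewer clusters than the median window in both replicates. All 8 windows with under 20 members lay on the centromere side of 11500001. They fell in 3 groups, from 11500001 to 12500000, from 14500001 to 16000000 and from 17000001 to 18500000.

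**Figure D1:**
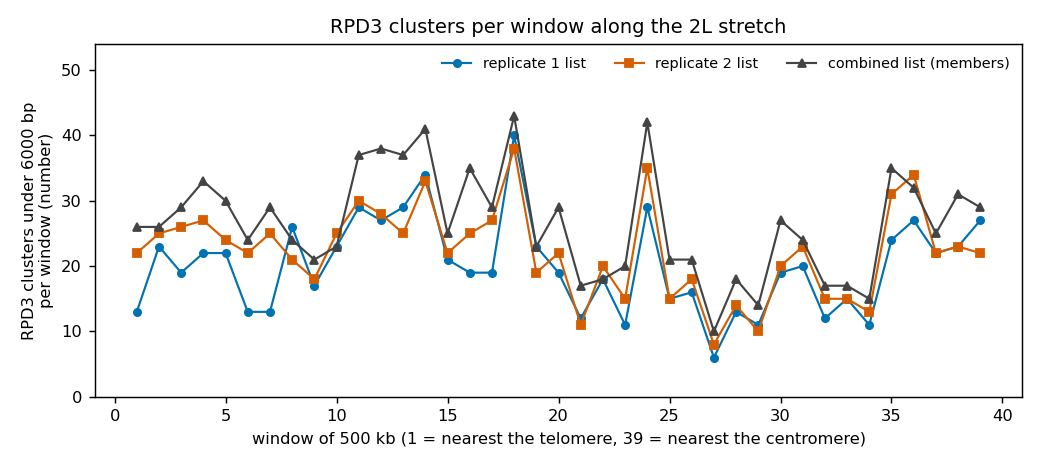
Number of RPD3 clusters under 6000 bp in each of 39 windows of 500 kb along the 2L stretch (window number on the horizontal axis, number of clusters on the vertical axis), with a line for each replicate list and for the combined list. The replicate lines mostly move alike (rho 0.787), although between windows 7 and 8 the line of replicate 1 climbs to 26 while that of replicate 2 drops to 21. The members have peaks of 43 members in window 18 and 42 in window 24 and a low of 10 in window 27.

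The section from 14500001 onward was thinner on average than the rest of the stretch. When the windows were taken in 3 sections of 13, the replicates had 45.7 ± 4.57 clusters per Mb up to 8000000, 44.3 ± 2.61 from 8000001 to 14500000 and 36.9 ± 2.17 from 14500001 onward (SD, n = 2). Within replicate 1 the values were 42.5, 42.5 and 35.3 per Mb, and within replicate 2 they were 48.9, 46.2 and 38.4. The last section was the lowest in each replicate. The gap between the first sections was smaller than the spread between replicates. The median score of the members was 0.52, 0.47 and 0.54 in the 3 sections and their median width 2363, 2359 and 2411 bp. In the replicates' own lists the median scores were 0.73, 0.68 and 0.71 in replicate 1 and 0.84, 0.75 and 0.81 in replicate 2. The last section was not uniformly thin, and density did not fall steadily toward the centromere. Its windows up to 18500000 held 10, 18, 14, 27, 24, 17, 17 and 15 members. Those from 18500001 onward held 35, 32, 25, 31 and 29.

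The largest differences between the replicates were in windows near the telomere side, but large ones were also found elsewhere. From 4500001 to 5000000, replicate 1 had 13 clusters and replicate 2 had 25. In the first window, up to 2000000, and again from 4000001 to 4500000, replicate 1 had 13 and replicate 2 had 22. Farther along, from 9500001 to 10000000, the numbers were 19 and 27. They were 24 and 31 from 18500001 to 19000000, and 27 and 34 from 19000001 to 19500000. Replicate 1 was ahead by 5 clusters in 2 windows, from 5000001 to 5500000 with 26 against 21 and from 20500001 onward with 27 against 22. Replicate 2 had more clusters in 27 of the 39 windows, replicate 1 in 8, and the numbers were equal in 4.

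Density was also set against score and width at the scale of these windows. Across the 39 windows, rho of member density was -0.23 with the window's median score and -0.06 with its median width. For scores the sign depended on the list, with rho of -0.15 in replicate 1 and 0.12 in replicate 2, and with the windows shifted by 250 kb it was -0.42 for the members. Median scores of the members ranged from 0.36 to 0.79 by window and median widths from 1927 to 2949 bp. The highest median score, 0.79, was that of 17500001 to 18000000, a window of 17 members, where the replicates' own medians were 0.69 and 1.07. It was followed by 10500001 to 11000000 at 0.78, with 0.81 in both replicates, and 5500001 to 6000000 at 0.64, with 0.98 and 1.05. The replicates ranked windows by median score only loosely (rho 0.217 over 39 windows), so the order differed between lists.

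The widest members by median were in 18000001 to 18500000 at 2949 bp, 6000001 to 6500000 at 2903 bp and 10500001 to 11000000 at 2819 bp. In replicate 1 the medians of these windows were 2543, 2816 and 3034 bp, and in replicate 2 they were 2594, 2784 and 2516 bp. The window medians of width had a rho of 0.507 between the replicates. The lowest median score and the lowest median width were in 1 window, 4500001 to 5000000, at 0.36 and 1927 bp. There 9 of 29 members overlapped both replicates, the lowest share of the 39 windows at 31.0%. The highest share was 82.4%, or 14 of 17, in 17500001 to 18000000.

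**Figure D2:**
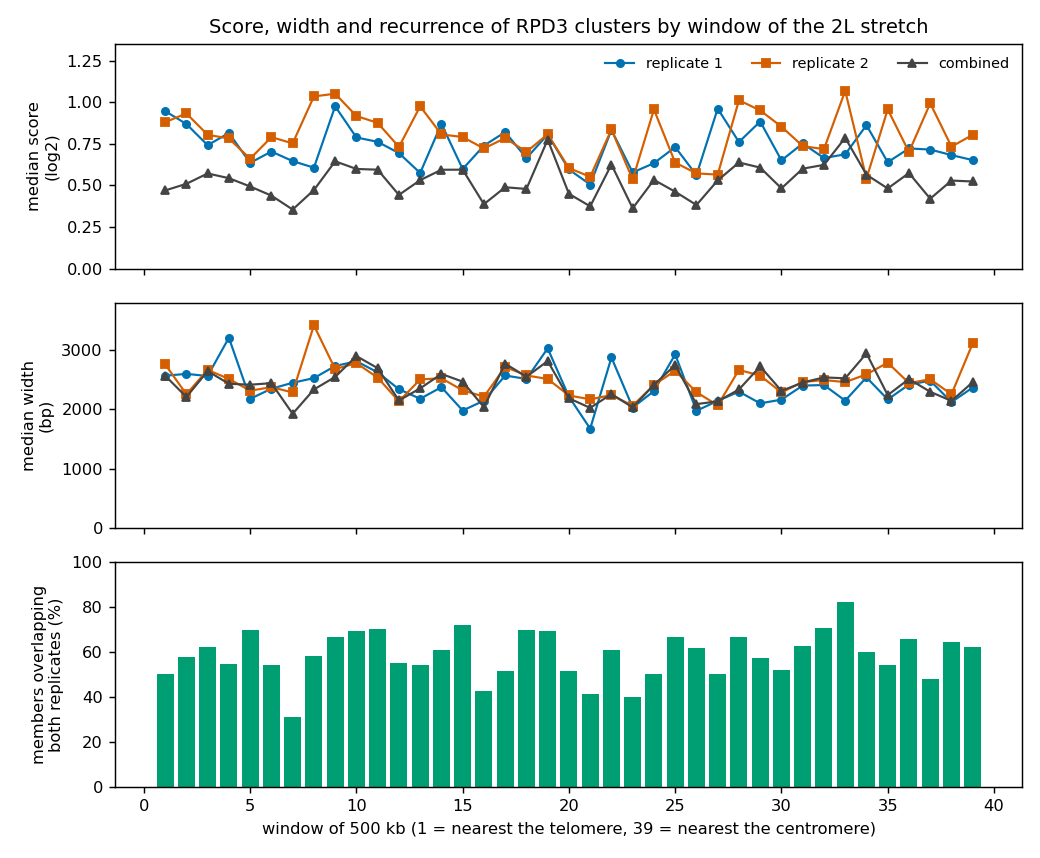
Median score (log2), median width (bp) and share of members that overlap both replicates (%) in each of 39 windows of 500 kb along the 2L stretch; lines in the upper panels are the replicate lists and the combined list, bars in the lower panel are the members. Score lines share an axis, but how each list was scaled is unknown, so their levels are not compared. The share ranges from 31.0% in window 7 to 82.4% in window 33.

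Spacing between neighbours was broad and strongly skewed. The 1034 gaps, counted from the end of a member to the start of the next, had a median of 6469 bp and a mean of 16156 bp, with an SD of 24015 bp. The shortest 10% were under 496 bp and the longest 10% were over 44528 bp. In the replicates the median gap was 8760 bp in replicate 1 and 8058 bp in replicate 2, or 8409 ± 496 bp (SD, n = 2). Short gaps were frequent: 106 of the 1034 were under 500 bp, 169 were under 1000 bp and 459, or 44.4%, were under 5000 bp. The 459 gaps under 5000 bp together took up 4.38% of the stretch, while the 87 gaps of 50 kb or more took up 35.4% of it. Gaps of 50 kb or more took up 47.7% of the stretch in replicate 1 and 43.0% in replicate 2. Gaps under 500 bp made up 10.3% of gaps in the combined list, 6.91% in replicate 1 and 4.73% in replicate 2. The length of a gap was weakly tied to that of the next gap, with rho of 0.17 in the combined list, 0.21 in replicate 1 and 0.17 in replicate 2.

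**Figure D3:**
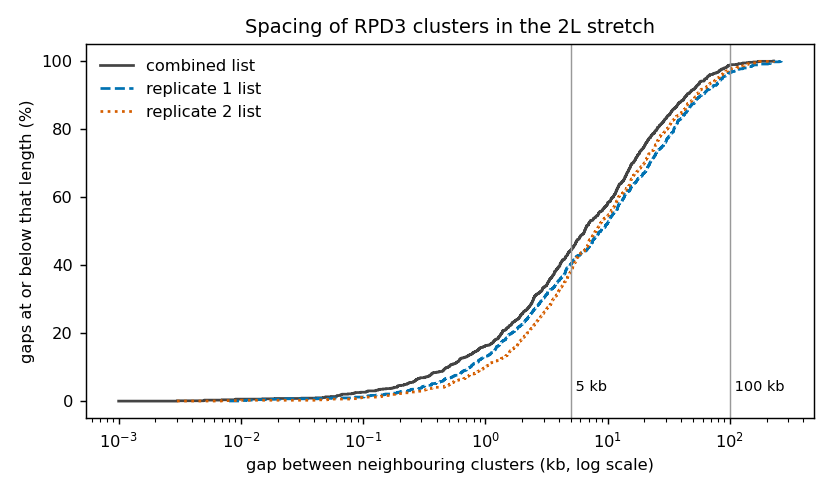
Cumulative share of gaps between neighbouring RPD3 clusters under 6000 bp in the 2L stretch (vertical axis, %) against gap length (horizontal axis, kb, log scale) for the combined list and each replicate list; grey lines mark 5 and 100 kb. The curves run close together, with 44.4%, 40.3% and 38.1% of gaps under 5 kb in the combined list, replicate 1 and replicate 2.

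Neighbouring sites did not share a level of enrichment. Spearman's rank correlation between the scores of successive members was 0.01 over the 1034 pairs, 0.02 over the pairs of replicate 1 and -0.01 over those of replicate 2. It stayed between -0.17 and 0.16 when pairs were divided into 8 classes of distance. In the 106 pairs less than 500 bp apart, the stronger member had a median score of 0.76 and the weaker one 0.36. In the 87 pairs 50 kb or more apart these were 0.79 and 0.39. Recurrence was alike for the closest and the most isolated members. Of 203 members whose nearest neighbour was under 500 bp away, 109 overlapped both replicates, or 53.7% (95% exact interval 46.6 to 60.7). Of 67 whose nearest neighbour was 25 kb or more away, 36 did, or 53.7% (41.1 to 66.0). The 5 classes of distance between these ran from 57.0% to 64.1%. The intervals cover counting error only, and close neighbours are not independent. The most isolated member lay from 14796750 to 14798492, with no other member within 89285 bp and a score of 0.07, and was found in replicate 2 alone. The next, from 16971782 to 16974278, was 81969 bp from its neighbour, scored 0.73 and was found in both replicates.

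Deserts, defined as stretches of 100 kb or more with no member, numbered 13. They summed to 1814 kb, or 9.30% of the stretch, and 9 of the 13 lay in the last section, from 14500001 onward. The longest ran from 11583699 to 11812275 (229 kb). It held 1 wide cluster near its centromere-side end, which both replicates also had, so the longest run free of combined clusters of any width was 220 kb. The next were 14798493 to 14970859 (172 kb), 19191487 to 19361309 (170 kb) and 15334617 to 15489781 (155 kb). None of these 3 held a cluster of any list apart from clusters that reach in from their edges.

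The remaining deserts among the 10 longest were between 117 and 144 kb. They lay from 12547849 to 12691595 (144 kb), from 15771885 to 15910785 (139 kb) and from 16974279 to 17101525 (127 kb). The others lay from 19607679 to 19733983 (126 kb), from 18321331 to 18440403 (119 kb) and from 16051101 to 16167625 (117 kb). The desert from 12547849 began 25610 bp beyond the highest-scoring site of the stretch. Of all 13 deserts, 4 held a replicate cluster with no counterpart in the combined list, 1 cluster each. These 4 clusters scored between 0.30 and 0.43, measured 1348 to 1519 bp, and none overlapped the other replicate. Deserts ended at members of all strengths: the 26 flanking members scored between 0.07 and 1.42 with a median of 0.56, and 18 of them were found in both replicates.

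With fewer clusters, the replicate lists had more such stretches, 27 in replicate 1 and 21 in replicate 2. Of these, 16 of the 27 and 16 of the 21 overlapped a desert of the other replicate by at least 50% of the shorter one. The longest measured 264 kb in replicate 1 and 229 kb in replicate 2.

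Dense blocks were runs of at least 5 members in which each started less than 5 kb after the end of the one before. There were 27 of them, holding 170 of the 1035 members in 3.78% of the stretch. With clusters of any width the same rule gave 39, so the number and ends of blocks depend on the width limit. Of the 27 blocks, 13 had 5 members, 3 had 6, 6 had 7, 4 had 8 and 1 had 13. They spanned 16.3 to 64.6 kb. Members in blocks had a median score of 0.59 and a median width of 2674 bp, against 0.48 and 2297 bp for the 865 members outside. In blocks, 114 of 170 members overlapped both replicates, or 67.1% (95% exact interval 59.4 to 74.1), against 491 of 865, or 56.8% (53.4 to 60.1), outside. The intervals cover counting error only and overlap, and block membership depends on the same calls.

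The largest block ran from 10355930 to 10420486 and packed 13 members into 64.6 kb. Their scores ran from 0.29 to 1.21 with a median of 0.64, 11 of the 13 were found in both replicates, and 13 clusters of replicate 1 and 11 of replicate 2 touched the block. Within 5 kb of the block lay 1 wide cluster that the members leave out. The block was in the densest window, which held 3 further blocks. One of these, from 10273738 to 10308514, had 8 members in 34.8 kb with a median score of 0.48, and 5 of them were found in both replicates.

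The other blocks of 8 members differed in strength. The block from 6944100 to 6972970 spanned 28.9 kb with a median score of 0.71, and 6 members were found in both replicates. The block from 7975742 to 8013130 spanned 37.4 kb with a median score of 0.88, and 7 were found in both. The block from 7402704 to 7438666 spanned 36.0 kb and was weaker, with a median score of 0.33 and 2 members in both replicates. Each replicate list had 16 blocks by the same definition, and 10 of the 27 blocks were met by a block of replicate 1, 10 by a block of replicate 2 and 5 by a block of each.

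Recurrence was matched by an overlap of at least 1 bp. Of the 1035 members, 605 overlapped clusters of both replicates, or 58.5% (95% exact interval 55.4 to 61.5). This share is not given here for the other arms or the whole list, so whether it is particular to 2L is unknown. Another 272 met a single replicate, 95 of them replicate 1 and 177 replicate 2, and the remaining 158 members, 15.3% (13.1 to 17.6), met none. Each member that overlapped a replicate met 1 cluster there in 677 of 700 cases in replicate 1 and in 766 of 782 cases in replicate 2, and 2 clusters in the rest. In the reverse direction, 30 clusters of replicate 1 and 9 of replicate 2 spanned more than 1 member. The members found in both replicates made up 72.8% of the bases covered by members.

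Members found in both replicates were the wide and high-scoring ones. Their median width was 3005 bp and their median score 0.78. Those found in replicate 1 alone had medians of 1771 bp and 0.34, those in replicate 2 alone 1937 bp and 0.35, and those in neither 1196 bp and 0.35. The last 3 classes had like scores, while those in neither were the narrowest. Wide clusters have a greater chance of touching another cluster, and no adjustment was made for this. Scores and widths here are those of the combined list, which was made from these replicates.

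The change with score was steep and lay in a narrow range. The score is that of the combined list, which was made from these replicates, so part of the rise is built in and it is a description. When members were put in order of score and taken in 10 groups, 12.5%, 7.77%, 12.5% and 21.4% of the 4 lowest groups overlapped both replicates. In the fifth group, with scores of 0.42 to 0.52, the share was 55.8% (95% exact interval 45.7 to 65.5). In the sixth, up to 0.64, it was 85.4% (77.1 to 91.6). The 4 highest groups had shares of 94.2%, 97.1%, 98.1% and 100%. Of the 193 members that scored above 1, 192 were found in both replicates. By width the rise was as steep. None of the 104 narrowest members, up to 1217 bp, overlapped both replicates, 48 of 103 did in the fourth group, from 1917 to 2125 bp, and 80 of 104 did in the fifth, up to 2391 bp.

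**Figure D4:**
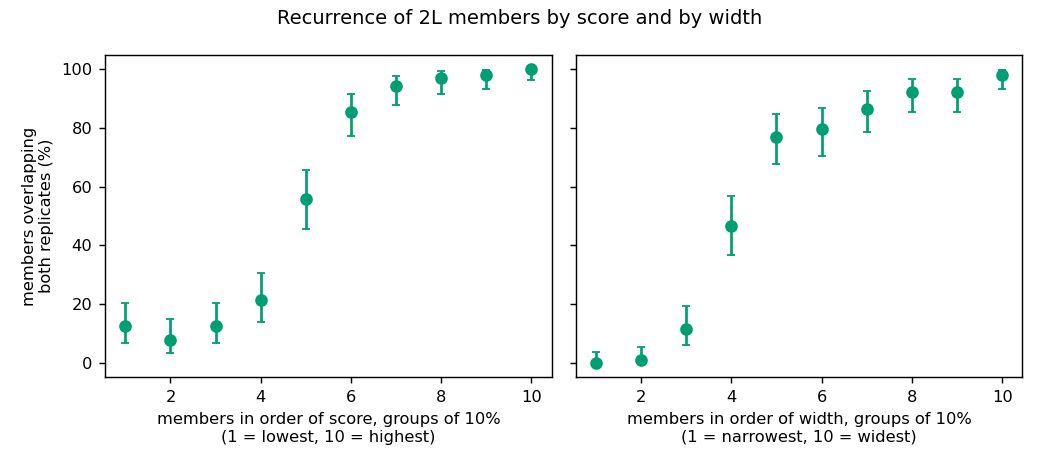
Share of 2L members that overlap both replicates (vertical axis, %) in 10 groups of 103 or 104 members ordered by score (left) and by width (right); points are shares and bars are 95% exact binomial intervals, which cover counting error only. The share is under 22% in the 4 lowest score groups and above 85% from the sixth group upward. Score and width are those of the combined list, which was made from these replicates.

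The 5 highest-scoring members found in neither replicate were all narrow. They lay from 20175752 to 20176820 (1069 bp, score 1.00), from 8730614 to 8731768 (1155 bp, score 0.75), from 6990988 to 6991994 (1007 bp, score 0.59), from 13243444 to 13244842 (1399 bp, score 0.55) and from 9222094 to 9223310 (1217 bp, score 0.51). Of the 5, 4 were narrower than the narrowest replicate cluster of the stretch.

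Sites with a single matching cluster in each replicate were placed closely. For 536 of the 605 members found in both replicates, 1 cluster of each replicate matched the member and no other. Their start differed between the replicates by a median of 201 bp, their end by 196 bp and their midpoint by 176 bp. Of the 536, 453, or 84.5%, had midpoints within 500 bp of each other. Overlap with the same member limits these shifts, and the other members found in both replicates were not measured. Midpoints were as close for weak as for strong sites. Their median shift was 174 bp in the 268 members with the higher combined scores and 178 bp in the 268 with the lower ones. In that order, the median start shift was 201 and 201.5 bp and the median end shift 179.5 and 224.5 bp. The lower-scoring members were narrower, with a median width of 2475 bp against 3366 bp, so overlap limits their shifts more. Over the 536, scores had a rho of 0.642 between replicates and widths a rho of 0.612. Within the 268 with the higher combined scores these were 0.346 and 0.660. Within the 268 with the lower ones they were 0.112 and 0.259. Splitting by score narrows its range, and the combined score was made from both replicates, which can itself lower rho within each part. How well the replicates rank weaker sites therefore cannot be judged from these values.

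**Figure D5:**
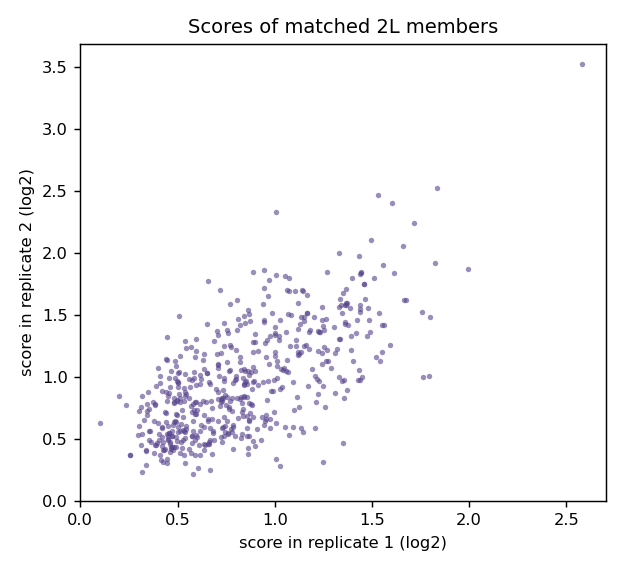
Score in replicate 2 (vertical axis, log2) against score in replicate 1 (horizontal axis, log2) for 536 members of the 2L stretch matched to 1 cluster in each replicate; each point is a member. The points rise together (rho 0.642), and a single site stands apart at 2.58 in replicate 1 and 3.52 in replicate 2.

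The 10 highest-scoring members found in both replicates were spread over 10 different windows. They measured 2719 to 4803 bp. The first, from 12519262 to 12522238, scored 2.93, with 2.58 in replicate 1 and 3.52 in replicate 2, and was the highest of the stretch in each. It stood in a thin window of 20 members whose median score was 0.36, with its nearest member 5315 bp away.

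The second site lay from 19507046 to 19510010 and scored 2.19, with 1.84 in replicate 1 and 2.52 in replicate 2. The third lay from 5106620 to 5110076 and scored 2.08, with 1.53 and 2.47 in the replicates in that order. The fourth, from 2419358 to 2422078, scored 2.03, with 1.60 and 2.40. The replicate clusters of the second ran from 19506853 to 19510244 and from 19507267 to 19509901, those of the third from 5106983 to 5110156 and from 5106554 to 5109990, and those of the fourth from 2419492 to 2422093 and from 2419343 to 2422037.

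Further sites ranked high in both replicates. The fifth, from 7025718 to 7029230, scored 1.98 and ranked 11 of 850 clusters of any width in replicate 1 and 6 of 912 in replicate 2. It belonged to a dense block of 7 members, from 7022856 to 7058110, all found in both replicates. The seventh, from 14347202 to 14349920, scored 1.86 and ranked 2 and 19. The eighth, from 6721676 to 6725354, scored 1.86 and ranked 5 and 14. The tenth, from 6336454 to 6340278, scored 1.79 and ranked 31 and 9.

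For the sixth and ninth sites the replicates differed most in rank. The sixth, from 13778732 to 13782016, scored 1.92 and ranked 8 in replicate 2 but 97 in replicate 1, where the overlapping cluster was 6320 bp wide and ran on to 13785170. The ninth, from 4809186 to 4813988, scored 1.84 and ranked 5 in replicate 2 with a score of 2.33. In replicate 1 it ranked 245 with a score of 1.01. The third site ranked 28 and 3 and the fourth 17 and 4. All 10 sites were among the first 19 clusters of replicate 2, but it took the first 245 of replicate 1 to include them all. The 10 sites were chosen by the score of the combined list, which was made from these replicates, so their ranks are a description.

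The 5 widest members scored between 0.44 and 1.55. The replicate clusters given here are those with the largest overlap, and other clusters of the same replicate can lie under a member. For the widest, from 6782724 to 6788712 with a score of 0.44, they measured 1943 bp in replicate 1 and 3099 bp in replicate 2. For the third, from 13055948 to 13061838 with a score of 1.01, they measured 2885 and 5369 bp. The others were of similar width in both lists. From 3168146 to 3174048 the replicate clusters measured 5508 and 5350 bp, from 19429354 to 19435210 they measured 5188 and 5597 bp, and from 6917500 to 6923344 they measured 5809 and 5748 bp. Their combined scores were 1.08, 1.46 and 1.55 in that order.

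Set beside the same trimmed stretches of other arms, 2L was close to 3L and 3R in density. Its density was 0.958 times that of 3L in replicate 1 and 0.950 times in replicate 2, and 0.960 and 0.922 times that of 3R. Against the X the ratio was 0.937 in replicate 1 but 1.00 in replicate 2, and the sign of the difference was not shared. Over the 3 arms together the ratio was 0.954 ± 0.0013 (SD, n = 2). The ratio was not tested. Its SD was smaller than those of the single-arm ratios, which were 0.0057 for 3L, 0.026 for 3R and 0.047 for the X, and the lists share most of their sites.

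The median score on 2L was within 0.01 of that on 3L in each replicate, and it differed from that on 3R by -0.02 and -0.03. It was below that on the X by 0.15 and 0.12, at 0.71 against 0.87 in replicate 1 and 0.80 against 0.92 in replicate 2. The SD over the mean of window densities in the combined list was 0.306 on 2L, 0.303 on 3L, 0.288 on 3R and 0.328 on the X. The combined list had 6.66 deserts per 10 Mb on 2L, 7.60 on 3L, 7.38 on 3R and 8.98 on the X. Replicate 1 had 13.8 on 2L, 15.7 on 3L, 14.8 on 3R and 15.9 on the X, and replicate 2 had 10.8 on 2L, 11.9 on 3L, 13.5 on 3R and 14.3 on the X. Dense blocks numbered 13.8 per 10 Mb on 2L, 13.3 on 3L, 13.5 on 3R and 15.9 on the X in the combined list. In the replicates' own lists these values differed: replicate 1 had 8.20 on 2L, 10.9 on 3L, 8.60 on 3R and 10.6 on the X, and replicate 2 had 8.20 on 2L, 8.08 on 3L, 13.5 on 3R and 8.46 on the X.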

How the data were processed

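Per the labels, head chromatin was fixed with formaldehyde, sonicated and immunoprecipitated. The submitters' processing notes name Bowtie 0.12.7; the cluster caller, its threshold and how the combined list was made are not stated there or in the labels. The genome is FlyBase release 5, per the file headers. The deposited score was taken as log2 because the 5 top score values of the combined list, once un-logged, are 9 to 13 times 1 step. The headers name no scale, and how ChIP was scaled to input is unknown, so levels from different lists were not compared. The 1 region named as depletion was dropped. Positions are 1-based.

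Overlaps, gaps, windows, deserts and blocks were computed in Python 3.11.15 with numpy 2.4.6 and scipy 1.17.1 and checked on simulated lists. Intervals are 95% exact (Clopper-Pearson). They cover counting error only and treat members as independent, which neighbours are not. The regions and rules were chosen with earlier results of these data known. Sites named are the 10 highest-scoring members found in both replicates, the 5 widest, the 5 highest-scoring found in neither, the 10 longest deserts, the 5 largest blocks and the 3 windows at each extreme; the most isolated members, other windows and blocks were named after their values were seen. The order of replicates, where 2 values are given, is 1 then 2. Alternatives changed the overlap, width limit, score range, thresholds, windows and list.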

Additional observations from a re-analysis of the deposited data

How the results depend on the processing

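Of 58 alternatives over 10 results, 23 stayed within the tolerance and 35 moved. The tolerance was 1 SD between replicates, the exact interval of a share, 0.1 for 3 of the rhos, or 1.5 times for a count. The 3 alternatives using the narrowest replicate cluster or the combined list for the arm ratio were chosen after seeing the data. The share of members in both replicates was 94.8% in the better-scoring 50%, 61.5% with all widths, 67.0% without members narrower than any replicate cluster, and 67.6% to 75.6% against 1 replicate alone. Density was 40.1 to 44.5 per Mb in the replicates alone, 26.5 in the better-scoring 50%, 57.2 with all widths and 46.3 without the narrowest members. The density ratio to the other arms was 0.867 for the better-scoring 50% and 0.938 by covered bases. The median gap was 9152 bp between midpoints, 8058 to 8760 bp in the replicates alone, 5040 bp with all widths, 12645 bp for members in both replicates and 15395 bp for the better-scoring 50%. The number of deserts was 88, 38 and 4 at 50, 75 and 150 kb, 34 for members in both replicates, 44 for the better-scoring 50% and 21 to 27 in the replicates alone; it was 13 with all widths and 10 over clusters of any list. The number of dense blocks was 11 and 58 at 2.5 and 10 kb and 56 and 14 at 4 and 6 members. It was 39 with all widths, 16 in each replicate alone and 7 for members in both. The rho of density between replicates was 0.911 with windows shifted by 250 kb, and 0.751 to 0.865 under the others. The rho of density and median score ran from -0.15 to 0.12 in the replicates alone and from -0.42 to -0.11 under the others, the lowest with windows shifted by 250 kb. The rho of width and score was 0.506 for members in both replicates. Fewer clusters lengthen gaps and thin blocks by construction; other causes were not tested. No paired analysis was possible because values exist for 1 group, the 2 ChIP samples, and not for the inputs. The limits set by depth are unknown, since no read counts were used.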

Other observations

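Members beside wide clusters were set against the rest. Of the 1035 members, 103 lay less than 5 kb from a cluster of 6000 bp or more, and 64 of these, or 62.1% (95% exact interval 52.0 to 71.5), overlapped both replicates. Of the 932 farther away, 541 did, or 58.0% (54.8 to 61.2). Their median scores were 0.57 and 0.51 and their median widths 2633 and 2360 bp, for those beside wide clusters and those farther away in that order. Beside wide clusters, 16 of the 103 were found in replicate 1 alone and 9 in replicate 2 alone, against 79 and 168 of the 932 farther away. Of the 82 wide clusters, 66 had a member within 5 kb, and all 82 overlapped both replicates.

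All 1035 members start and end at even positions, whereas even starts numbered 397 among 782 clusters in replicate 1 and 428 among 868 in replicate 2. The combined list also holds 132 members narrower than any replicate cluster of the stretch, and 102 of these were found in neither replicate. In the other direction, 53 clusters of replicate 1, or 6.78%, and 6 of replicate 2, or 0.691%, had no counterpart in the combined list. The 53 had a median score of 0.50 and a median width of 1524 bp, against 0.74 and 2452 bp for the other clusters of replicate 1.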
